A study of Mus musculus with 6 samples.

Results

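Replication-dependent histone genes were followed in nuclear RNA of HL-1 cells, a cardiomyocyte line from mouse atrial tumour tissue that beats and divides in culture. Members were the protein-coding identifiers of the deposited table whose symbol begins with Hist1h, Hist2h, Hist3h or Hist4h, which gave 58 of 28660 identifiers without spike-ins. They comprised 5 genes of linker histone H1, 14 of H2A, 16 of H2B, 12 of H3 and 11 of H4. Nuclei were separated into chromatin pellet and soluble nuclear extracts, sequenced as 3 libraries each. All 6 libraries came from HL-1 cells with no labelled treatment, grown in Claycomb medium with serum, glutamine and norepinephrine. ERCC spike-ins, synthetic RNAs of known sequence, were put into each fraction before RNA extraction. Ribosomal RNA was depleted before strand-specific library construction, per the labels' protocols, so that RNAs without a poly(A) tail could be sequenced.

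Replication-dependent histone genes supply the histones that package newly copied DNA, and their messages accumulate in S phase. They lie in clusters, have no introns, and end in a conserved stem-loop in place of a poly(A) tail. The stem-loop binding protein Slbp, the U7 small nuclear ribonucleoprotein and a cleavage complex make that end, and Slbp accompanies the message to the cytoplasm. H3 and H4 form the centre of the nucleosome, H2A and H2B flank it, and H1 binds the linker DNA. Replacement histones such as H2afz are instead made through the cell cycle, mostly from genes with introns and poly(A) tails.

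The deposited table gives 1 FPKM value per fraction (fragments scaled to transcript length and library size), with the 3 libraries of a fraction pooled. No spread between replicates can therefore be computed, no p-value is given, and the sequencing depth is unknown. Log2 folds compare pellet FPKM times 3.37 with soluble FPKM, where 3.37 is the factor that brings the spike-ins to balance, so a negative value means less RNA in the pellet once the spike-ins are balanced. This scale assumes equal spike-in amounts in both fractions. Without the factor, on the FPKM scale, every log2 fold is lower by 1.75. The technical scatter was taken from the 47 spike-ins with a mean of both fractions of at least 0.5 FPKM, whose log2 folds had an SD of 0.12 and ranged from -0.28 to 0.23. Of 8 cardiomyocyte markers in the table, all reached a mean of 0.5 FPKM, and Ryr2, also listed, was not in the table. Tnnt2, cardiac troponin T, had 213 FPKM in the pellet and 1022 in the soluble extract. The lowest of the 8 was Nppa, with 0.208 FPKM in the pellet and 1.63 in the soluble extract. Actn2 had 5.61 FPKM in the pellet and 4.67 in the soluble extract. The endothelial gene Cdh5 and the leukocyte gene Ptprc had at most 0.0110 FPKM in each fraction, but other markers on their lists were higher. The endothelial gene Kdr had 1.62 FPKM in the pellet and 5.52 in the soluble extract, and Pecam1 had 0.226 and 0.350. The immune marker Cd68 had 0.569 FPKM in the pellet and 0.711 in the soluble extract. The collagen gene Col3a1, listed as a fibroblast marker, had 87.0 FPKM in the pellet and 340 in the soluble extract. Of 6 cycling cell markers, all were expressed, among them Top2a, a mitotic topoisomerase, with 85.9 FPKM in the pellet and 220 in the soluble extract.

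Histone messages lay in the soluble extract almost throughout. Of the 44 members with a mean of at least 0.5 FPKM, 41 were at least 2-fold lower in the pellet, 1 was higher and 2 lay within 2-fold. Among all 13917 loci at that level, 10.5% were at least 2-fold lower and 31.9% at least 2-fold higher. The members' median log2 fold was -1.80, with an interquartile range from -1.91 to -1.49, against 0.41 for all loci and 0.26 for protein-coding loci. Expressed as the share of spike-scaled signal found in the pellet, the median member had 22.3%, against 54.6% for other protein-coding genes. On the FPKM scale 42 members were lower and 0 higher, where 61.2% of all loci were lower and 9.66% higher. Because low members mostly reached 0.5 FPKM through their soluble value, the count was also taken over all 58. Of these, 52 were at least 2-fold lower and 2 at least 2-fold higher. The matching share over all loci without the filter was not taken, so this count has no background beside it.

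**Figure D1:**
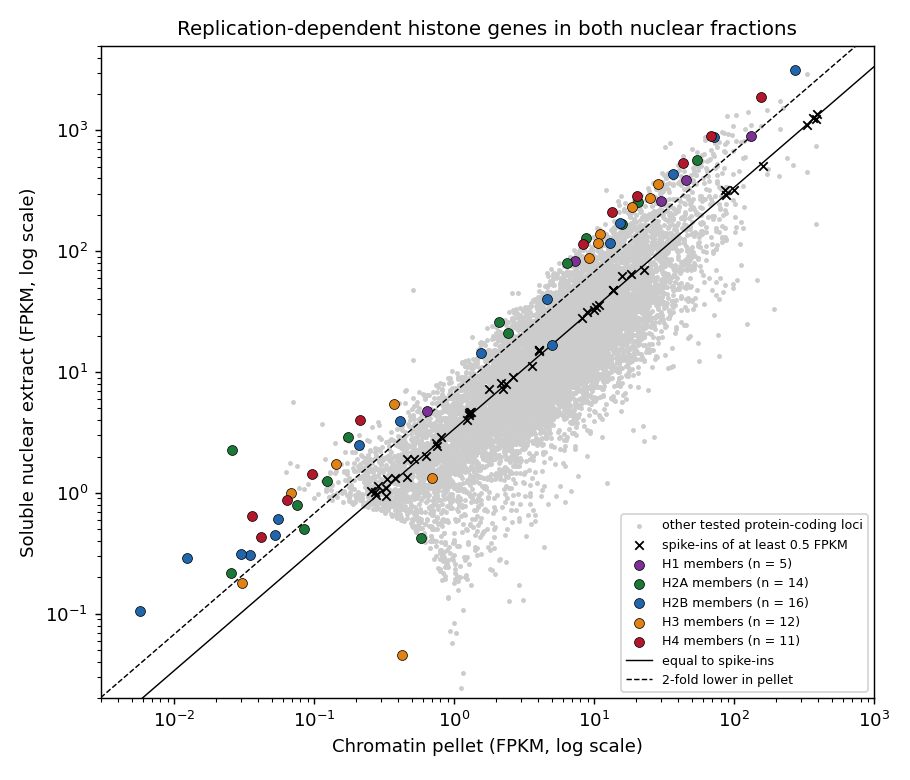
Pellet FPKM (x axis, log scale) against soluble FPKM (y axis, log scale) for the 58 histone members by class, with other tested protein-coding loci in grey and spike-ins as crosses. The solid line marks balance with the spike-ins and the dashed line 2-fold lower in the pellet; 52 of 58 members lie beyond the dashed line, and the exceptions are at the low end except for Hist2h2be on the solid line.

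The values of the 31 members above 5 FPKM on average were tightly grouped. Of these, 30 were lower in the pellet, 0 higher, and the SD of their log2 folds over genes was 0.41. Of the 7758 other protein-coding genes at that level, 12.7% were lower and 19.6% higher, and the SD was 0.997. Tight grouping was also seen in 22 other protein-coding genes at that level with a RefSeq span of at most 1000 bp. Their interquartile range ran from -1.70 to -1.37, against -1.90 to -1.48 for the histone members. Their SD was 0.69, with a largest value of 1.48. Among the 23 members of at least 50 FPKM, all were lower in the pellet, with folds from -2.20 to -1.02 and an SD of 0.27. Other protein-coding genes of at least 50 FPKM were lower in 40.3% of 942 cases, with a median of -0.74. A fold of at least 4 towards the soluble extract was reached by 10 of the 44 members and by 0.898% of all loci.

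Histone H4 genes lay farthest towards the soluble extract. All 8 that reached 0.5 FPKM were lower in the pellet, with a median log2 fold of -2.04 and a range from -2.48 to -1.84. Hist1h4d (chromosome 13, 23581598 to 23581990 in mm10) had 157 FPKM in the pellet and 1892 in the soluble extract, a log2 fold of -1.84. Hist1h4c had 68.9 FPKM in the pellet and 904 in the soluble extract, a fold of -1.96. Hist1h4h had 43.4 FPKM in the pellet and 539 in the soluble extract, a fold of -1.88. These abundant genes sat within 0.12 of each other. The spike-in SD is of that size, but the spike-ins were added to fractions already separated, so it holds no spread from fractionation or between cultures. How fragments were divided between H4 copies is also not known from the sources used here. Copies on other chromosomes gave like values: Hist2h4 on chromosome 3 had -2.20 and Hist4h4 on chromosome 6 had -2.01. Hist1h4b had the lowest log2 fold of the class, -2.48, with 0.212 FPKM in the pellet and 3.998 in the soluble extract.

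H3 genes had a median of -1.86, and 9 of 10 were lower in the pellet. Hist1h3c had 28.5 FPKM in the pellet and 358 in the soluble extract. Hist1h3f had 18.6 FPKM in the pellet and 233 in the soluble extract, and Hist1h3g had 10.9 and 138. All of these came to a log2 fold of -1.90. Hist1h3e, with 25.3 FPKM in the pellet and 276 in the soluble extract, had -1.69. The H3 genes of the Hist2 cluster had -1.69 for Hist2h3b and -1.50 for Hist2h3c2. H3 genes encode near-identical proteins, and the sources used here do not say how fragments were divided between copies, so values of single members are uncertain.

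Of 11 H2A genes, 10 were lower in the pellet and 1 was higher, and their median was -1.86. Hist2h2ac was the most abundant, with 54.4 FPKM in the pellet and 567 in the soluble extract, a log2 fold of -1.63. Hist1h2ac followed with 20.7 FPKM in the pellet and 253 in the soluble extract, a fold of -1.86. Hist3h2a on chromosome 11 had 15.8 FPKM in the pellet and 169 in the soluble extract, a fold of -1.67. Its locus in the table is shared with Trim17, Gm12260 and 2310058D17Rik. Among the H2A genes of at least 5 FPKM, Hist1h2ae was lowest at -2.12 and Hist2h2ab highest at -1.36.

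H2B genes had a median of -1.61, with 9 of 10 lower in the pellet. Hist2h2bb had the highest level of all members in either fraction, with 272 FPKM in the pellet and 3142 in the soluble extract, and a log2 fold of -1.78. The identifier table gives its identifier the symbol Gm42743, so its identity is uncertain. It shares its coordinates in the table with Hist2h3b and Gm20628. How fragments were divided between them is not known from the sources used here, so its value is uncertain too. Hist1h2bb had 71.4 FPKM in the pellet and 876 in the soluble extract, a fold of -1.86. Hist1h2bg had 36.6 FPKM in the pellet and 433 in the soluble extract, a fold of -1.81. Hist1h2bc, whose locus in the table spans 8290 bp and for which a polyadenylated form is known, had -1.40.

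Linker histone H1 genes were the least soluble class. All 5 were lower in the pellet, but their median was -1.33, and the median share in the pellet was 28.4%, against 19.6% for H4. Hist1h1e had 132 FPKM in the pellet and 906 in the soluble extract, a log2 fold of -1.02 that lay at the 2-fold threshold. Hist1h1c had 45.5 FPKM in the pellet and 387 in the soluble extract, a fold of -1.33. Hist1h1d had 30.1 FPKM in the pellet and 263 in the soluble extract, a fold of -1.37. Hist1h1t, the testis form, had -1.13 at 0.646 FPKM in the pellet and 4.75 in the soluble extract. Hist1h1a, at -1.73, was the most soluble member of the class.

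Among genes of at least 0.5 FPKM the H1 and H4 ranges did not overlap, at -1.73 to -1.02 for the 5 H1 genes and -2.48 to -1.84 for the 8 H4 genes. Below that level the H4 gene Hist1h4k had -1.61, inside the H1 range, at 0.0420 FPKM in the pellet and 0.433 in the soluble extract. The H1 genes were also longer, with a median RefSeq gene length of 745 bp against 404 bp for H4. The part of transcript length in the order of the histone classes was not tested. With no replicate value, whether the order of the classes would recur between cultures was not tested either.

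**Figure D2:**
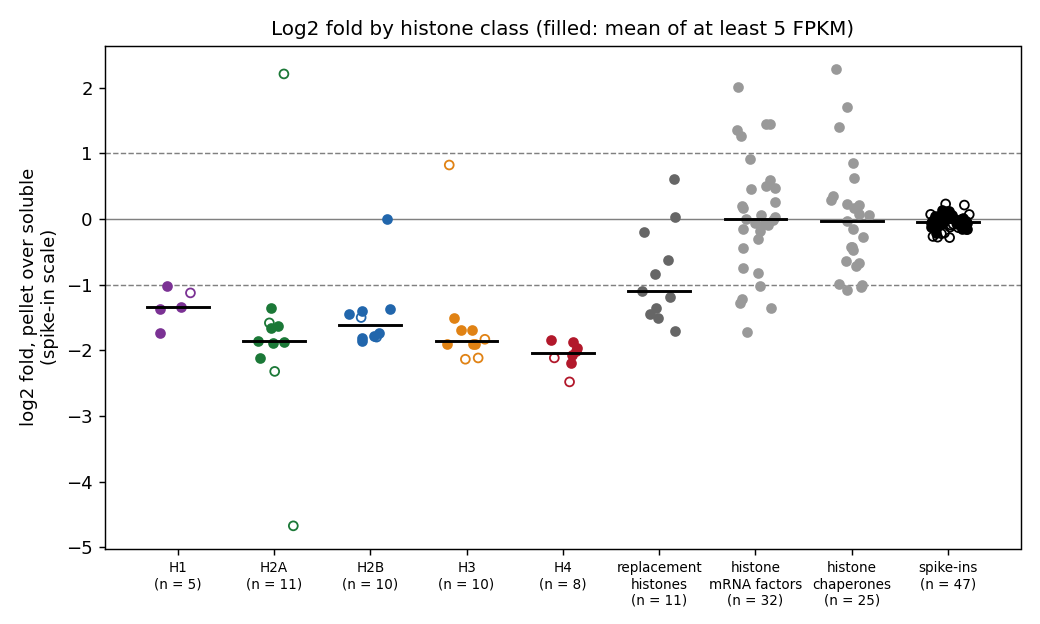
Log2 fold of pellet over soluble FPKM on the spike-in scale (y axis) for each tested histone gene by class, for replacement histones, histone mRNA factors and chaperones, and for spike-ins. Points are loci (open below a mean of 5 FPKM), bars are medians, and dashed lines mark 2-fold; class medians run from -1.33 for H1 to -2.04 for H4, while the factor and chaperone medians lie near 0.

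The exceptions were few and mostly weakly expressed. Hist1h2ad, an H2A gene, had 0.579 FPKM in the pellet and 0.423 in the soluble extract, a log2 fold of 2.21 at a mean of 0.501 FPKM, just above the level filter. Hist1h3d, the next member along chromosome 13, had 0.699 FPKM in the pellet and 1.33 in the soluble extract, a fold of 0.82. On the other side of Hist1h2ad, Hist1h2bf had 1.55 FPKM in the pellet and 14.3 in the soluble extract, a fold of -1.45. The members beyond these, Hist1h2bg and Hist1h4d, had -1.81 and -1.84. The stretch from Hist1h2bf to Hist1h3d thus held lower levels than its neighbours, and Hist1h2ad and Hist1h3d had the largest folds towards the pellet among tested members.

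Hist2h2be, an H2B gene for which a longer polyadenylated message is known besides the stem-loop form, was the exception with a sizeable level. It had 4.97 FPKM in the pellet and 16.9 in the soluble extract, a log2 fold of -0.0082, so that 49.9% of its signal was in the pellet. Its locus spans 2620 bp (chromosome 3, 96221119 to 96223738). The 12 members of at least 5 FPKM whose locus spans over 1000 bp had a median of -1.59 and an SD of 0.55, and the 19 with shorter loci had -1.86 and 0.26. Without Hist2h2be the other 11 had a median of -1.67 and an SD of 0.29. Several of the longer loci are shared with other genes, which moves with span and was not separated from it.

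A pair of Hist2 members took opposite extremes at the same coordinates. Hist2h2aa2 had 0.0261 FPKM in the pellet and 2.25 in the soluble extract, a log2 fold of -4.67 that was the lowest among tested members. Hist2h3c1 had 0.426 FPKM in the pellet and 0.0458 in the soluble extract, a fold of 4.97 at a level under the filter. The table places both at 96243550 to 96248509 on chromosome 3, together with the antisense locus Gm20633 and the processed transcript Gm20634. These genes belong to an inverted duplication: the RefSeq promoters of Hist2h2aa1 and Hist2h2aa2 share an identical run of 219 bases, and those of Hist2h3c1 and Hist2h3c2 a run of 231 bases. Of the partner copies, Hist2h2aa1 had a log2 fold of -1.88 and Hist2h3c2 one of -1.50. The symbols Hist2h2aa1 and Hist2h2aa2 are also exchanged between the deposited table and the identifier table, and the table's symbols are used here. How fragments were assigned between the copies was not tested, and the values of this pair are uncertain.

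Levels differed far more between members than folds did. Of the 58, 23 had at least 100 FPKM in the soluble extract, 8 had between 10 and 100, and 27 had less than 10, of which 15 had less than 1. The Hist1 cluster on chromosome 13 held a block of low members and a block of mixed levels. The 14 members between 21717659 and 22043676 had a median of 0.0488 FPKM in the pellet and 0.625 in the soluble extract, and none passed 5.43 FPKM. The 30 members between 23531050 and 23934851 had a median of 12.0 FPKM in the pellet and 133 in the soluble extract, with 17 of them at 100 FPKM or more in the soluble extract. Within this second block 9 members had less than 10 FPKM in the soluble extract. Besides Hist1h2ad and Hist1h3d, these were Hist1h3b at 0.180, the testis genes Hist1h2ba at 0.448 and Hist1h2aa at 0.507, Hist1h2ab at 1.25, Hist1h3a at 1.72, Hist1h4b at 3.998 and Hist1h1t at 4.75 FPKM in the soluble extract. The median log2 folds of the 2 blocks, over all their members, were -1.91 and -1.73, so both lay on the soluble side. Hist1h2al, which lies apart at 51202688 on the same chromosome and is named as a pseudogene in RefSeq, had 0.174 FPKM in the pellet and 2.93 in the soluble extract, a log2 fold of -2.32. In bulk samples, fewer cells in S phase and less histone RNA per cell cannot be told apart, so the levels describe the culture as a whole.

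**Figure D3:**
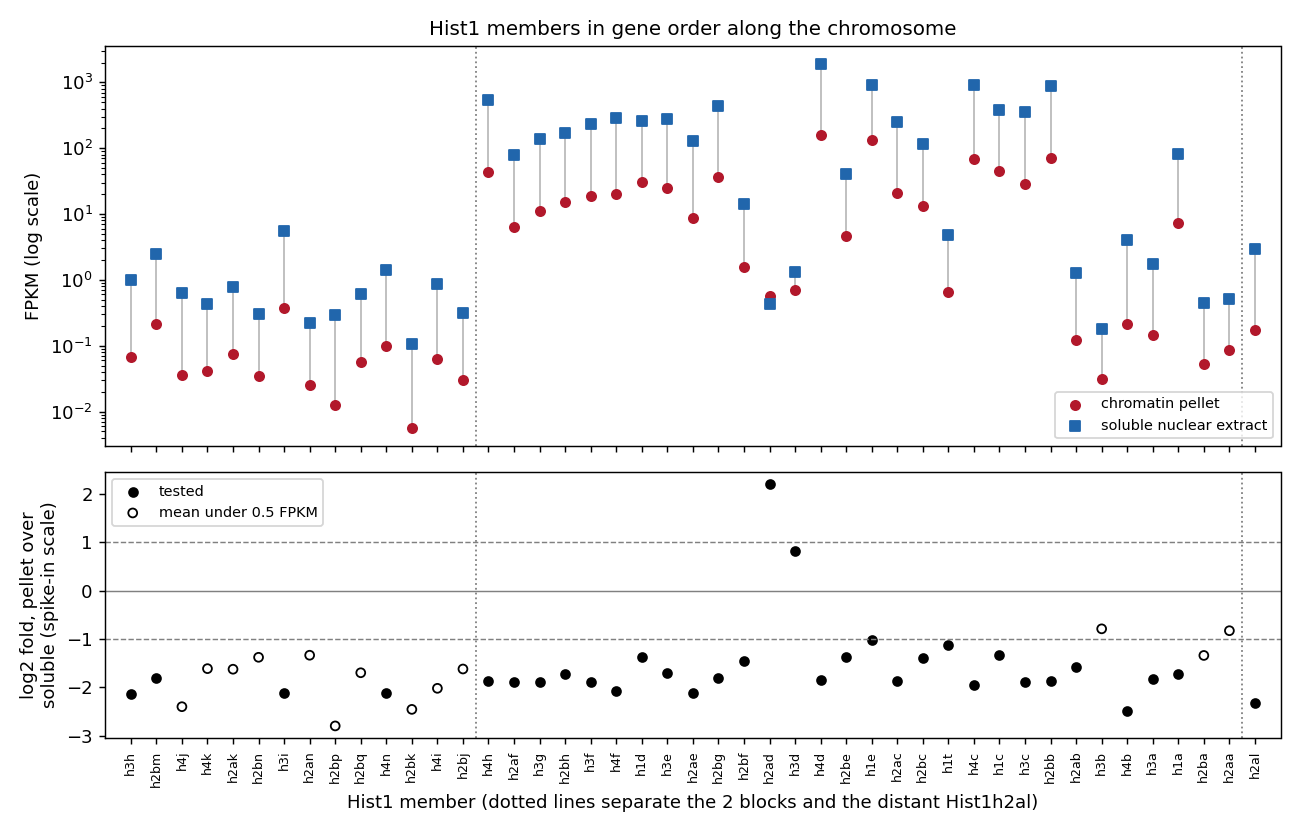
Upper panel: FPKM in the pellet (circles) and the soluble extract (squares) on a log scale for the 45 Hist1 members in gene order. Lower panel: their log2 folds on the spike-in scale; the 14 members of the first block stay at or under 5.43 FPKM, and Hist1h2ad at 2.21 and Hist1h3d at 0.82 stand out within the second block.

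Histone messages made up 1.12% of the summed protein-coding FPKM in the pellet and 3.34% in the soluble extract. A few genes held most of this. Hist2h2bb alone accounted for 23.3% of the histone sum in the pellet and 24.4% in the soluble extract, and the 5 most abundant members together for 60.2% and 59.9%. By class, H2B took 36.1% of the histone sum in the pellet and 37.4% in the soluble extract. H4 took 26.8% in the pellet and 30.7% in the soluble extract. H1 took 18.5% in the pellet and 12.7% in the soluble extract, the widest shift of any class. H2A held 9.60% in the pellet and 9.73% in the soluble extract, and H3 9.01% and 9.46%. The sums of the replication-dependent H2A and H3 genes were thus lower than those of the H2B and H4 genes in both fractions. For H2B this rested largely on Hist2h2bb, whose identity and value are uncertain. Without it the H2B sum was 148 FPKM in the pellet and 1678 in the soluble extract, against H2A sums of 112 FPKM in the pellet and 1254 in the soluble extract. The class sums leave out replacement histones, so they do not describe all messages for a histone type. In the soluble extract the replacement H2A genes H2afx and H2afz had 1079 and 1036 FPKM. The H3.3 genes H3f3b and H3f3a had 339 and 186 FPKM there. The Hist1 cluster held 66.1% of the histone sum in the pellet and 65.3% in the soluble extract, and the Hist2 cluster 31.7% and 32.5%.

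**Figure D4:**
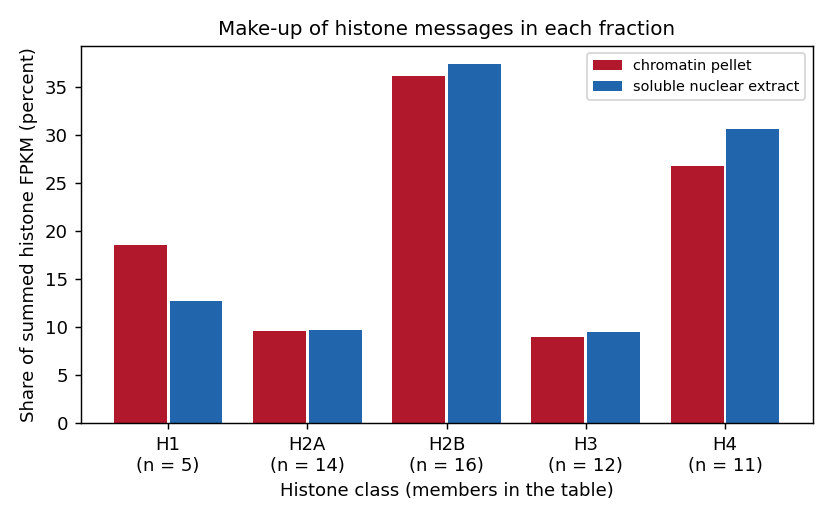
Share of the summed histone FPKM (y axis, percent) held by each class in the chromatin pellet and the soluble nuclear extract, with the number of members under each class. H1 has 18.5% of the pellet sum and 12.7% of the soluble sum, and H4 has 26.8% and 30.7%.

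Promoter sequences from RefSeq (GRCm38.p6, the build of mm10) were found for 52 of the 58 members. They are shown for abundant members of each class and for Hist1h2ad, the member with the opposite fold, because the classes are known to use different promoter elements. Each is the 120 bases before the annotated start, read 5′ to 3′ on the gene's strand. Capitals mark, on either strand, the TATA box motif TATAAA and the motif CCAAT, which binds the factor NF-Y. They also mark the octamer motif ATTTGCAT, and the element AAACACA that is known from H1 genes.
Hist1h1e (chr13:23622559-23622678, minus strand): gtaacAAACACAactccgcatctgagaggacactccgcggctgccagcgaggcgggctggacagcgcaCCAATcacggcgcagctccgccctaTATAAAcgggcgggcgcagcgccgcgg
Hist1h1c (chr13:23738687-23738806, plus strand): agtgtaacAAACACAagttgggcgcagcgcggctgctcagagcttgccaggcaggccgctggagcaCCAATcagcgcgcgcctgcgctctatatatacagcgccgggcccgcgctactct
Hist2h2ac (chr3:96220881-96221000, minus strand): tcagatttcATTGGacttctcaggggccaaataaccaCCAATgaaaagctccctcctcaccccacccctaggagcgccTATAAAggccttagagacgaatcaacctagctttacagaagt
Hist1h2bg (chr13:23571280-23571399, plus strand): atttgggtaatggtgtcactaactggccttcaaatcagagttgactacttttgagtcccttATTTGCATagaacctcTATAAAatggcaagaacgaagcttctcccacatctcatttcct
Hist2h2bb (chr3:96269580-96269699, plus strand): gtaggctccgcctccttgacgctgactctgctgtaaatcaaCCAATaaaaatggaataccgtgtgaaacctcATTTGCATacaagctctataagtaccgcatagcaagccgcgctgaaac
Hist1h3c (chr13:23745522-23745641, minus strand): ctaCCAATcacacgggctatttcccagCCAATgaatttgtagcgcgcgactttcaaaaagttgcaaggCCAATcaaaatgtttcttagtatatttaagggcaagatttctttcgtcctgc
Hist1h4d (chr13:23581448-23581567, plus strand): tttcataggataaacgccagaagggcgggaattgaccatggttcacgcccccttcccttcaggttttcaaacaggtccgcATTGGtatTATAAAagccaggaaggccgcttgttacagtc
Hist1h4c (chr13:23698459-23698578, minus strand): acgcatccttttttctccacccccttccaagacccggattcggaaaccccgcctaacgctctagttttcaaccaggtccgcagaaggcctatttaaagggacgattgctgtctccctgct
Hist1h2ad (chr13:23574261-23574380, plus strand): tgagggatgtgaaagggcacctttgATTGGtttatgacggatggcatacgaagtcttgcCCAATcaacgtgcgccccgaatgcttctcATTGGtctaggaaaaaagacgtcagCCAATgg

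The shares of promoters with CCAAT, ATTTGCAT and AAACACA differed between histone classes, with no test made. Over the 250 bases before the start, CCAAT on either strand occurred in 13 of 13 H2A, 14 of 14 H2B, 5 of 5 H1 and 8 of 10 H3 promoters, but in 2 of 10 H4 promoters. It was found in 34.4% of 26973 other promoters of that length. The octamer ATTTGCAT, bound by Oct-1 and known from H2B genes, was present in 6 of 14 H2B and 6 of 13 H2A promoters and in 0 of the H1, H3 and H4 promoters, against 1.57% of the others. Divergent H2A and H2B genes share their promoter DNA, so such a motif can be counted for both. AAACACA was present in 4 of 5 H1 promoters, in 2 each of the H2A and H2B promoters and in 0 of the H3 and H4 promoters, against 6.21% of the others. TATAAA was present in 27 of 52 member promoters and in 12.9% of the others, with class shares from 40.0% for H3 to 60.0% for H1. Among the 27 promoters of members with at least 10 soluble FPKM, 12 held TATAAA and 23 held CCAAT. Among the 25 of members below that, 15 and 19 did. A match describes these letters only, and TATAAA did not begin at the same distance from the annotated start in all members. In Hist1h2ad the printed window held CCAAT 4 times, counting each strand, and its last copy lay within 10 bases of the annotated start.

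Of the 30 H2A and H2B genes, 27 had a RefSeq promoter and so a strand, and among these 5 pairs of an H2A and an H2B gene face away from each other with starts at most 281 bp apart. Hist1h2bc, Hist2h2be and Hist1h2al had none and were not paired. In the pair with the highest levels of these 5, the H2A gene Hist1h2ae had 8.81 FPKM in the pellet and 129 in the soluble extract. Its partner Hist1h2bg had 36.6 FPKM in the pellet and 433 in the soluble extract, 3.35 times as much in the soluble extract. Their folds were -2.12 and -1.81. Hist1h2ad and Hist1h2bf, the pair with the exception, differed by 33.7 times in the soluble extract, although their starts are 174 bp apart. The other pairs, Hist1h2ak with Hist1h2bn, Hist1h2an with Hist1h2bp, and Hist1h2aa with Hist1h2ba, were all under 0.8 FPKM in both fractions.

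Of the 14 members under 0.5 FPKM, 11 were at least 2-fold lower in the pellet, 1 was higher (Hist2h3c1), and Hist1h3b (-0.79) and Hist1h2aa (-0.83) lay within 2-fold. The share of all loci under 0.5 FPKM past 2-fold was not taken. The largest value of these members was 0.872 FPKM, for Hist1h4i in the soluble extract. At this level 5 of 35 spike-ins departed from balance by at least 2-fold, so the single values carry little weight.

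Replacement histones lay between the replication-dependent genes and balance. At least 2-fold lower values in the pellet were found for 6 of 11 and higher ones for 0, and the median log2 fold was -1.10. Among all loci 10.5% were lower and 31.9% higher. Other protein-coding genes of at least 50 FPKM, a level that not all replacement histones reached, were lower in 40.3% of cases, with a median of -0.74. The difference from such abundant genes was not tested. On the FPKM scale all 11 replacement histones were lower, where 61.2% of all loci were. H2afx, whose message can also end in a stem-loop, was the lowest at -1.71, with 98.0 FPKM in the pellet and 1079 in the soluble extract. The H3.3 genes differed from each other, with H3f3a at -1.51 (19.4 FPKM in the pellet and 186 in the soluble extract) and H3f3b at -0.20 (87.6 and 339). H2afz had -1.35, with 120 FPKM in the pellet and 1036 in the soluble extract. The remaining members past 2-fold were H1fx at -1.44, H2afv at -1.19 and H2afj at -1.10. The centromeric H3 gene Cenpa, at 0.03, and the macroH2A gene H2afy, at 0.61, were not lower in the pellet.

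Short genes of other kinds lay on the same side where they were well expressed. Of 22 other protein-coding genes with a RefSeq span of at most 1000 bp and a mean of at least 5 FPKM, 21 were at least 2-fold lower in the pellet and 1 was higher, with a median of -1.55. The corresponding count was 30 of 31 for the histone members, with a median of -1.78. With the level filter at 0.5 FPKM, 38 of 59 short genes were lower and 11 higher, and over all 210 without a filter their median was 0.46. The share of histone genes on the soluble side was therefore close to that of other short genes of this level, and the difference was not tested.

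Genes listed as histone mRNA factors showed no common side when spike-ins were balanced. The list is mixed and also holds genes of wider RNA processing, such as Wdr33. Of the 32 listed genes that reached 0.5 FPKM, 5 were lower in the pellet, 5 higher and 22 within 2-fold. Their median was -0.0067, where 10.5% of all loci were lower and 31.9% higher. On the FPKM scale 26 of the 32 were lower and 0 higher, where 61.2% of all loci were lower and 9.66% higher. Slbp itself had -0.0043, with 36.5 FPKM in the pellet and 123 in the soluble extract. Those lower were Snrpb (-1.21), Snrpe (-1.35), Snrpf (-1.27) and Snrpg (-1.72), which encode Sm proteins, and Ncbp2 (-1.02), a cap-binding subunit that sat at the threshold. Those higher included Npat (1.45) and Casp8ap2 (1.26), which act at histone gene loci, and Wdr33 (1.44), a polyadenylation factor. Mtpap (1.35) and the uridylyltransferase gene Zcchc11 (2.01) were the others, and only Zcchc11 stayed above 0 on the FPKM scale, at 0.25. Among 25 chaperone genes, 3 were higher in the pellet, namely Atrx (2.28), Hjurp (1.70) and Cabin1 (1.40). Another 3 were lower, namely Anp32e (-1.09), and Asf1b (-1.04) and Set, which sat at the threshold, and the median was -0.03. On the FPKM scale 21 of the 25 were lower and 0 higher. There Hjurp and Cabin1 were below 0, and Atrx stayed above it at 0.53.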

How the data were processed

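The values are those of 1 deposited table. Per the file headers, the authors gave 1 FPKM value per fraction and locus, a rescaled pellet signal, a total signal, a ratio of rescaled pellet over soluble value, and the log10 of total and ratio. The submitters' processing notes name mm10 as the build and the tools HISAT2, SAMtools, Cufflinks, Cuffdiff and bedtools. Roles and settings were not given in the sources used here. Depth is unknown, and no locus was at 0. Of 30687 lines, 1945 repeated an identifier and were dropped. Folds were recomputed from the FPKM columns with the spike-in factor 3.37, the least-squares slope over 82 spike-ins, and no pseudocount. A mean of both fractions of 0.5 FPKM or more was required, the threshold was 2-fold, and the calculation was checked on simulated data. Starts were converted to count from 1.

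Members, lists and rules were chosen with earlier results of these data known. The values named are members 2-fold higher, the 3 most abundant of each class, the 3 largest folds each way and list members past 2-fold. Other members were named after their values were seen. All 58 were matched to RefSeq (GRCm38.p6), 2 of them through the identifier's symbol. Alternatives were the FPKM scale, the median spike-in factor, other level filters and thresholds, and leaving out shared loci, testis genes or duplicated copies. Genes with a span of at most 1000 bp replaced single-exon genes, since exon numbers were not at hand, and were chosen after seeing the data. Python 3.11.15, pandas 2.3.3 and matplotlib 3.10.9 were used.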

Additional observations from a re-analysis of the deposited data

How the results depend on the processing

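With 1 pooled value per fraction, no library could be left out, and no replicate spread or depth limit exists. No paired analysis was possible because the libraries of a fraction are pooled. A median was called changed when it moved by more than the spike-in SD of 0.12. The direction of the histone median and of every class median was the same under each alternative run. On the FPKM scale medians fell to -3.56 for all histone members, -3.09 for H1, -3.61 for H2A, -3.37 for H2B, -3.62 for H3, -3.79 for H4, -2.86 for replacement histones, -1.76 for histone mRNA factors, -1.79 for chaperones and -3.21 for short genes, as the constant shift requires, and 0 members were higher. On that scale Wdr33 (-0.31), Npat (-0.31), Casp8ap2 (-0.49), Mtpap (-0.40), Cabin1 (-0.35) and Hjurp (-0.054) turned below 0. With the median spike-in factor, the factor and chaperone medians turned to 0.045 and 0.020, 40 members were lower, and Hist1h1e (-0.97), Ncbp2 (-0.97), Asf1b (-0.99) and Set (-0.95) were no longer past 2-fold. Without a level filter, 2 members were higher, the H2A median was -1.65 and that of short genes turned to 0.46. With a mean of at least 5 FPKM, 0 members were higher. At 1.5-fold 2 were higher, and at 4-fold 10 were lower. Without members that share a promoter run of at least 100 bases on the same strand, the H2A median was -1.67. Divergent pairs, which share such runs on opposite strands, were kept. This alternative was chosen after seeing the data. Leaving out Hist2h2be or Hist2h2bb was likewise chosen after seeing the data. The alternatives that needed protein sequences or exon numbers were not run.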
